A study of Papio anubis with 24 samples.

Results

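Chromosome 19 of the olive baboon (Papio anubis) held 7341 methylated-DNA peaks in embryonic stem cells (ESC) and 2657 in induced pluripotent stem cells (iPSC), together 9998 of the 211395 peaks in the 2 lists (166961 ESC and 44434 iPSC). The regions described are all peaks that the lists place on chromosome 19. The chromosome was chosen by its peak density, which was the highest of the 20 autosomes in both lists, so the density is given as a description with no test. Measures from the same lists are likewise set beside the other 19 autosomes as descriptions.

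DNA methylation was profiled by methylated DNA immunoprecipitation and sequencing (MeDIP-seq) with an antibody against 5-methylcytosine. The 24 libraries fall, by their titles, into 4 groups of 6: ESC MeDIP, ESC input, iPSC MeDIP and iPSC input. The ESC lines were B4 and B15 and the iPSC lines 160-2 and M14939#3, with 3 replicates per line in each group. All lines had been derived earlier and were grown on feeder cells, whose DNA the peak lists give no way to count. Line M14939#3 has 6 libraries, and in 5 of them the cell line field ends in a different number from the title, though either one names an iPSC line. No treatment, time or animal age is stated. There is 1 deposited list per cell type, so values per library, replicate errors and a test between ESC and iPSC are all missing, and a difference between the cell types cannot be told apart from one between their lines. Read depth per library is unknown.

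In mammalian genomes methylation falls mostly on cytosines that precede a guanine (CpG), and an antibody against methylated cytosine pulls down more DNA where many methylated CpGs lie close together. A MeDIP peak therefore marks a stretch where both CpG density and methylation allow enrichment over the local background. Human chromosome 19 is known for its high gene and GC content and for clusters of zinc finger genes, many of them on repeated segments, and the macaque chromosome of the same number is its counterpart. No source used here states whether the lists follow the macaque numbering, or which genome build they use. The gene table at hand is of another build that numbers its chromosomes differently, so peaks were not assigned to genes, promoters or CpG islands and no sequence is shown.

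Peak density on chromosome 19 was 142.9 per Mb in ESC (95% exact Poisson interval 139.6 to 146.2) and 51.7 per Mb in iPSC (49.8 to 53.7). The other autosomes carried 56.8 and 14.9 per Mb, which puts chromosome 19 at 2.52 times their density in ESC (2.46 to 2.58) and 3.47 times in iPSC (3.33 to 3.61). All intervals here cover counting error only and treat neighbouring peaks as independent, which they are not. The next autosomes were chromosomes 16 (103.8), 20 (93.7) and 10 (90.1) in ESC, and chromosomes 10 (30.3), 16 (29.9) and 20 (27.6) in iPSC. With a length of 51.4 Mb, counted to the end of the last peak on it, chromosome 19 was the shortest autosome and made up 1.98% of autosomal length. It held 4.84% of autosomal ESC peaks and 6.55% of autosomal iPSC peaks. ESC peaks covered 1971 kb of it, or 3.84% of its length against 1.40% elsewhere, and iPSC peaks 851 kb, or 1.66% against 0.474%.

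Along the chromosome, peaks were densest at its start and thinned out to almost none near 21 to 22 Mb. They rose again in the distal part, unevenly and without reaching the density of the start. Distal here means only toward the high end of the numbering. In stretches of 10 Mb the ESC density was 234.0, 138.1, 72.1, 120.7 and 157.4 per Mb, with 86.0 in the last 1.37 Mb. The iPSC density was 88.9, 44.0, 25.1, 48.7 and 55.1 per Mb, with 28.4 in that last stretch. Both lists thus had the same order of stretches from 0 to 50 Mb except that the second and the fourth changed places.

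**Figure D1:**
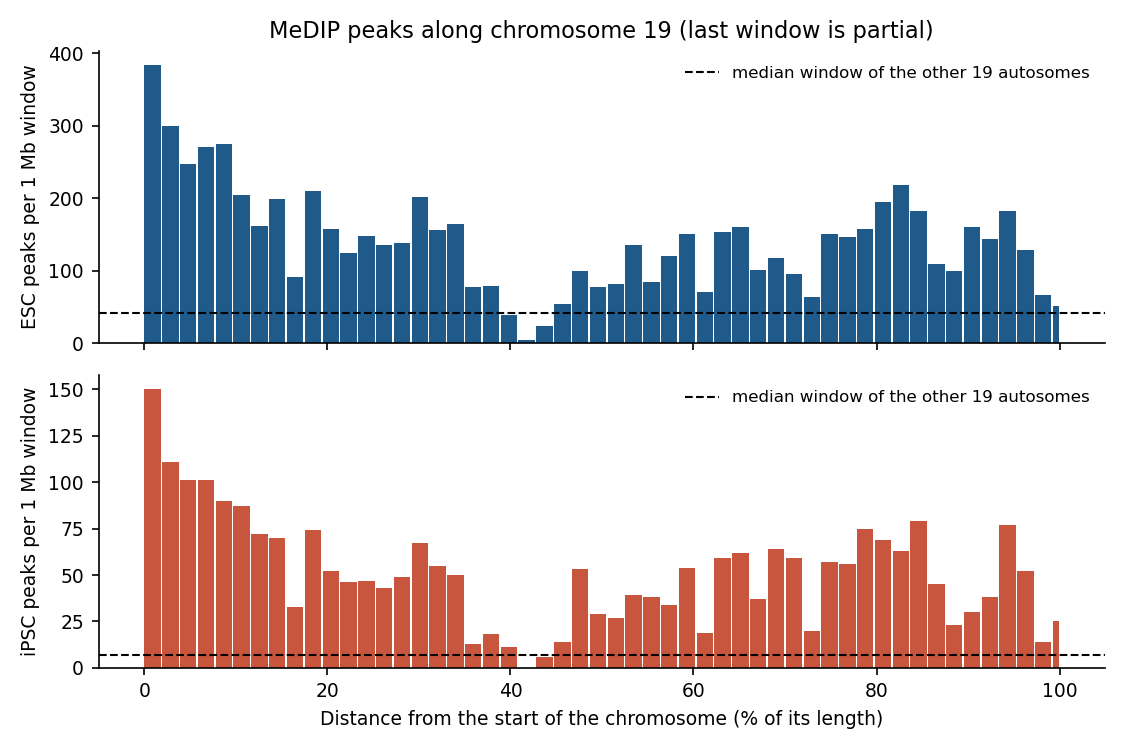
ESC peaks (upper panel) and iPSC peaks (lower panel) per 1 Mb window of chromosome 19, against the distance from its start as a percentage of its length. Bars are counts in single windows of each list, without replicates; the dashed line is the median window of the other 19 autosomes (42 ESC, 7 iPSC), which 48 of 51 full windows exceeded in ESC and 49 of 51 in iPSC.

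The 51 full windows of 1 Mb held a median of 144 ESC peaks (lowest 5, highest 384), against a median of 42 over 2533 full windows of the other autosomes. For iPSC the median was 52 (lowest 0, highest 150) against 7. The high density was thus spread over most of the chromosome: 34 windows exceeded the 90th percentile of the other autosomes' windows in ESC (107 peaks) and 36 did so in iPSC (34 peaks). Of the 100 fullest autosomal windows, 13 in ESC and 14 in iPSC lay on chromosome 19. Relative to its mean, the window count varied least here, with a coefficient of variation of 0.502 in ESC and 0.568 in iPSC, the lowest of the 20 autosomes in each list. The variance-to-mean ratio of the windows was 36.1 in ESC and 16.7 in iPSC, against 38.0 and 27.7 over the pooled windows of the other autosomes. By chromosome it ranked 8 of 20 in ESC, where the median of the others was 34.2, and 18 in iPSC, where it was 26.6.

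The 5 fullest windows were the first 5 Mb in both lists. The first Mb held 384 ESC and 150 iPSC peaks, the second 299 and 111, the third 247 and 101, the fourth 271 and 101 and the fifth 274 and 90. These windows contained 20.2% of the ESC peaks of the chromosome and 21.0% of its iPSC peaks. At the other extreme, the window from 21 to 22 Mb held 5 ESC peaks and no iPSC peak. Its neighbours were also sparse, with 39 ESC and 11 iPSC peaks from 20 to 21 Mb, 24 and 6 from 22 to 23 Mb and 54 and 14 from 23 to 24 Mb. The fifth sparsest window differed between the lists: it lay from 37 to 38 Mb in ESC (63 peaks, with 20 iPSC peaks) and from 18 to 19 Mb in iPSC (13 peaks, with 78 ESC peaks).

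The sparse region around 21 Mb contained the longest stretches without a peak. In ESC the 2 longest were separated by 1 peak, from 21498532 to 22264829 (766 kb) and from 21089568 to 21498353 (409 kb), followed by 18787390 to 18989093 (202 kb), and none of them held an iPSC peak. At 766298 bp the first was the longest between neighbouring ESC peaks on any autosome, the longest elsewhere being 629364 bp on chromosome 15. In iPSC 1 stretch of 1753 kb, from 20734312 to 22487228, spanned the same region and held 21 ESC peaks. The next in iPSC ran from 37607312 to 38049687 (442 kb, 12 ESC peaks) and from 49978546 to 50408014 (429 kb, 17 ESC peaks). What lies in these stretches is not given in the lists.

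The chromosome's ends differed from each other. The first 5 Mb carried 295.0 ESC peaks and 110.6 iPSC peaks per Mb, the highest of the 40 autosomal ends in both lists. The last 5 Mb carried 137.8 and 45.0 per Mb, which ranked 27 and 28 among the 40. Over the 38 ends of the other autosomes the median was 156.1 per Mb in ESC (56.4 to 257.2) and 72.9 in iPSC (11.2 to 101.2). The start thus exceeded the distal end 2.14 times in ESC and 2.46 times in iPSC. With ends of 2 Mb these ratios were 3.97 and 3.90, and the start ranked first in ESC and 4 in iPSC.

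Counted as 1 stretch of 10 Mb, the ends stood less far above the interior than on any other autosome. The ends held 216.4 ESC peaks per Mb and the interior 125.1, a ratio of 1.73 (1.64 to 1.82), against 3.36 over the other autosomes, where single chromosomes ran from 2.17 to 4.42. In iPSC the densities were 77.8 and 45.4 per Mb, a ratio of 1.71 (1.57 to 1.86), against 5.93 elsewhere and 3.33 to 9.11 by chromosome. The excess over the other autosomes therefore lay mainly in the interior, where chromosome 19 was 2.59 times as dense in ESC (2.52 to 2.67) and 4.17 times in iPSC (3.97 to 4.37). At the ends these ratios were 1.33 (1.28 to 1.39) and 1.20 (1.12 to 1.29), and chromosome 19 ranked 3 in ESC and 6 in iPSC.

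Because the chromosome is short, no point of it lies more than 25.7 Mb from an end, whereas the interior of a longer chromosome does. Peaks were therefore also compared in bands at the same distance to the nearer end. From 5 to 10 Mb its density was 164.2 ESC and 60.4 iPSC peaks per Mb, against 82.3 and 24.8 on the other autosomes. From 15 to 20 Mb it carried 128.9 and 46.7, against 56.4 and 13.0. In the band from 20 to 25.7 Mb, which holds the sparse windows, it carried 79.1 and 27.5, against 48.4 and 10.2. It ranked first of the 20 autosomes in every band beyond 5 Mb, except that chromosome 16 was denser in ESC from 20 to 25.7 Mb (82.4 per Mb).

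Pooled over both sides of chromosome 19, the number of iPSC peaks per 100 ESC peaks changed little with distance from the ends. It was 36.0 (33.1 to 39.0) within 5 Mb, 36.8 (33.5 to 40.4) from 5 to 10 Mb, 36.7 (33.1 to 40.8) from 10 to 15 Mb, 36.2 (32.5 to 40.3) from 15 to 20 Mb and 34.8 (30.5 to 39.6) beyond. On the other autosomes it fell along the same bands from 39.9 to 30.1, 25.1, 23.0 and 21.0. The sides of chromosome 19 differed, however. Within 5 Mb the number was 37.5 at the start and 32.7 at the distal end. From 15 to 20 Mb the start side carried 135.8 ESC and 40.6 iPSC peaks per Mb. The distal side carried 122 and 52.8 there, so iPSC peaks were relatively more frequent on that side. Over the whole chromosome the number of iPSC peaks per 100 ESC peaks was 36.2 (34.6 to 37.8) against 26.3, the highest of the 20 autosomes, and the next was chromosome 10 at 33.7. At the ends alone, however, chromosome 19 ranked 19 of 20. With the ESC list reduced to the length of the iPSC list the ratio was 130.3 at the ends and 137.3 in the interior of chromosome 19, and 131.1 and 91.5 elsewhere.

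**Figure D2:**
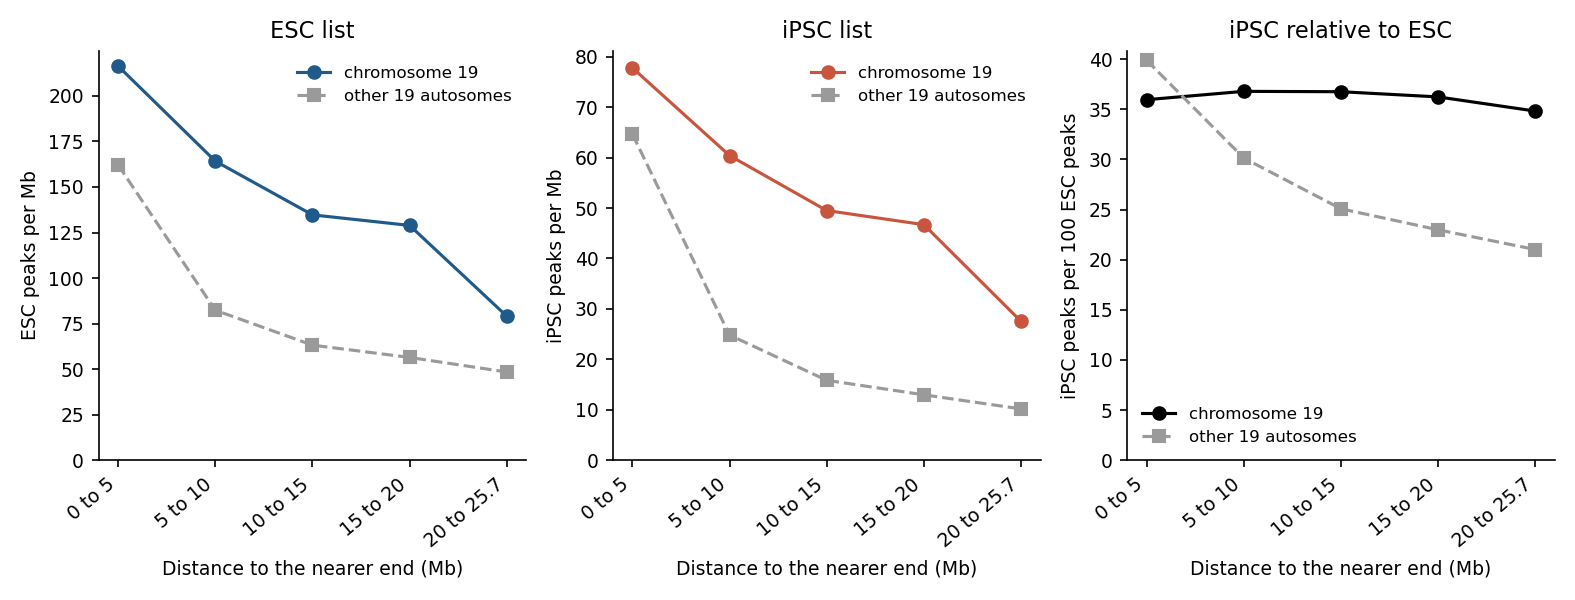
Density of ESC peaks (left) and iPSC peaks (middle) in peaks per Mb, and iPSC peaks per 100 ESC peaks (right), by distance to the nearer chromosome end in Mb. Filled circles are chromosome 19 with both sides pooled and grey squares the other 19 autosomes pooled, with no replicates. On chromosome 19 the pooled values of the right panel stay between 34.8 and 36.8, while the other autosomes go from 39.9 to 21.0.

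Local density was considered as well, by comparing windows with the same number of ESC peaks. In windows of 50 to 99 ESC peaks there were 34.7 iPSC peaks per 100 ESC peaks on chromosome 19 (12 windows) and 24.5 elsewhere (748 windows). With 100 to 149 ESC peaks the values were 35.8 and 31.2, and with 150 to 199 they were 37.0 and 35.3. In windows of 200 or more the order was the other way, at 36.6 on chromosome 19 (9 windows) and 42.9 elsewhere (61 windows). In windows of 1 to 49 ESC peaks it was 25 on chromosome 19, from 3 windows with 17 iPSC peaks, and 17.5 elsewhere. The ratio thus moved within 34.7 to 37.0 across the classes of 50 or more ESC peaks on chromosome 19 and within 24.5 to 42.9 on the other autosomes.

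**Figure D3:**
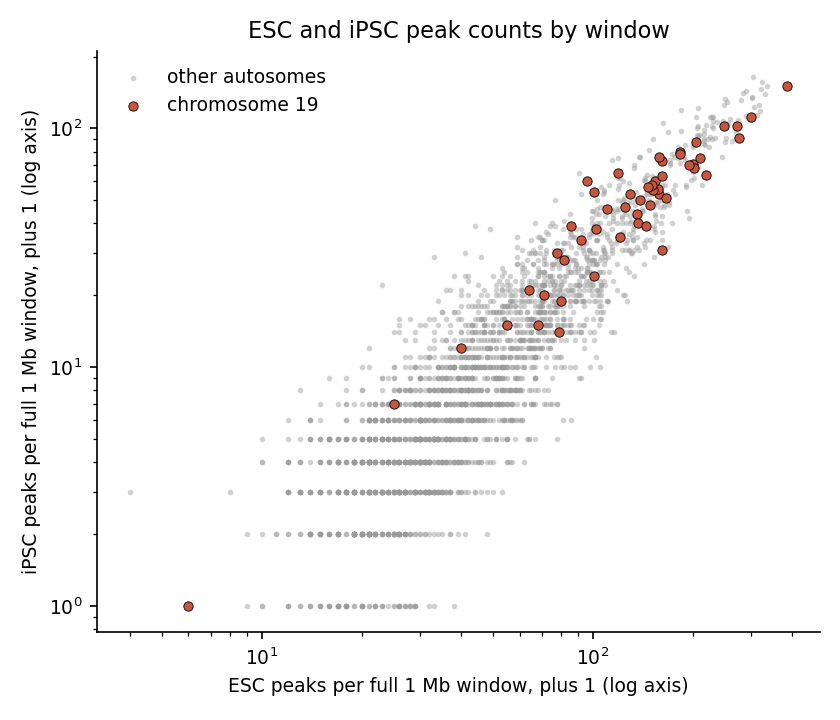
ESC against iPSC peaks per full 1 Mb window, each plus 1 on log axes, for 51 windows of chromosome 19 (red) and 2533 windows of the other autosomes (grey). Most points of chromosome 19 lie toward the high counts of both lists within the common band, and the sparse windows around 21 Mb lie toward the low counts.

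Counts of both lists rose and fell together along the chromosome. Spearman's rho across its 51 windows was 0.898, second of the 20 autosomes (0.736 to 0.912 on the others). Windows are neighbours on the same DNA, and within a list they share its libraries, so this is a description only. Single windows departed from the common ratio. Among 48 windows with at least 50 ESC peaks the number of iPSC peaks per 100 ESC peaks had a median of 35.7 and ran from 16.7 to 62.1.

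The highest ratios came from adjacent windows in the distal part and from a window next to the sparse region. From 36 to 37 Mb there were 59 iPSC and 95 ESC peaks (62.1 per 100, 44.1 to 86.8), from 35 to 36 Mb 64 and 118 (54.2, 39.4 to 74.1), and from 24 to 25 Mb 53 and 100 (53.0, 37.2 to 74.7). The share of their iPSC peaks lying on an ESC peak was 52.5, 57.8 and 47.2%, beside 69.4% over the chromosome. The lowest ratios were found from 18 to 19 Mb, with 13 iPSC and 78 ESC peaks (16.7, 8.50 to 30.2), from 46 to 47 Mb, with 30 and 160 (18.8, 12.3 to 27.8), and from 50 to 51 Mb, with 14 and 67 (20.9, 10.8 to 37.5). There 11 of 13, 23 of 30 and 10 of 14 iPSC peaks lay on an ESC peak (84.6, 76.7 and 71.4%), the latter 2 near the share of the chromosome. These windows were picked for their ratio, so the intervals are given without a test.

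Most iPSC peaks of chromosome 19 lay on ESC peaks, and most ESC peaks had no iPSC partner. An overlap of at least 1 bp was found for 1859 of 7341 ESC peaks (25.3%, exact Clopper-Pearson interval 24.3 to 26.3%), beside 17.7% of ESC peaks on the other autosomes. It was found for 1843 of 2657 iPSC peaks (69.4%, 67.6 to 71.1%), beside 66.3% elsewhere. The ESC share was the highest of the 20 autosomes, the others running from 13.1 to 21.1%, and the iPSC share ranked 4. With the ESC list reduced to the length of the iPSC list the ESC share was 39.1% against 28.6%, and the iPSC share 29.1% (27.4 to 30.9%) against 28.3%, a difference within its counting interval. In bases, the lists shared 480 kb of the 2342 kb covered by either, or 20.5%, against 15.7% elsewhere. By stretches of 10 Mb the ESC share was 27.9, 23.2, 21.9, 26.9 and 23.7%, and the iPSC share was 73.0, 71.4, 61.4, 66.1 and 68.1%, both lowest in the stretch from 20 to 30 Mb.

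The local background under the peaks was high on chromosome 19. This background is the coverage expected without enrichment, recovered in fragments from each peak's deposited −log10 p-value and fold. At ESC peaks its median was 40.3 fragments on chromosome 19 and 28.6 elsewhere, or 3.36 and 2.39 times the lowest background of the list. At iPSC peaks it was 29 and 25 fragments, or 2.84 and 2.44 times the lowest. Both medians were the highest of the 20 autosomes. Its part in the overlap and density of the chromosome was not tested, beyond the grouping that follows.

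Among peaks of like background, the ESC overlap of chromosome 19 was near that of the other autosomes or below it. Autosomal ESC peaks were divided into 5 equal bins by background, and in the bins from lowest to highest 0.997, 4.92, 11.4, 20.5 and 47.8% of chromosome 19 peaks overlapped an iPSC peak. On the other autosomes the shares were 1.06, 3.89, 10.2, 22.9 and 52.6%. In the highest bin chromosome 19 was thus below the others (45.9 to 49.7% against 52.0 to 53.2%), but it had 37.1% of its ESC peaks in that bin, against 19.1%. Among iPSC peaks the shares were 46.7, 53.8, 63.3, 73.2 and 86.9% on chromosome 19 and 53.9, 58.1, 65.4, 72.2 and 83.0% elsewhere. Grouped by −log10 q instead, the ESC overlap of chromosome 19 was above that of the other autosomes in all 5 bins, from 15.6 against 12.6% in the lowest to 41.5 against 31.1% in the highest.

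**Figure D4:**
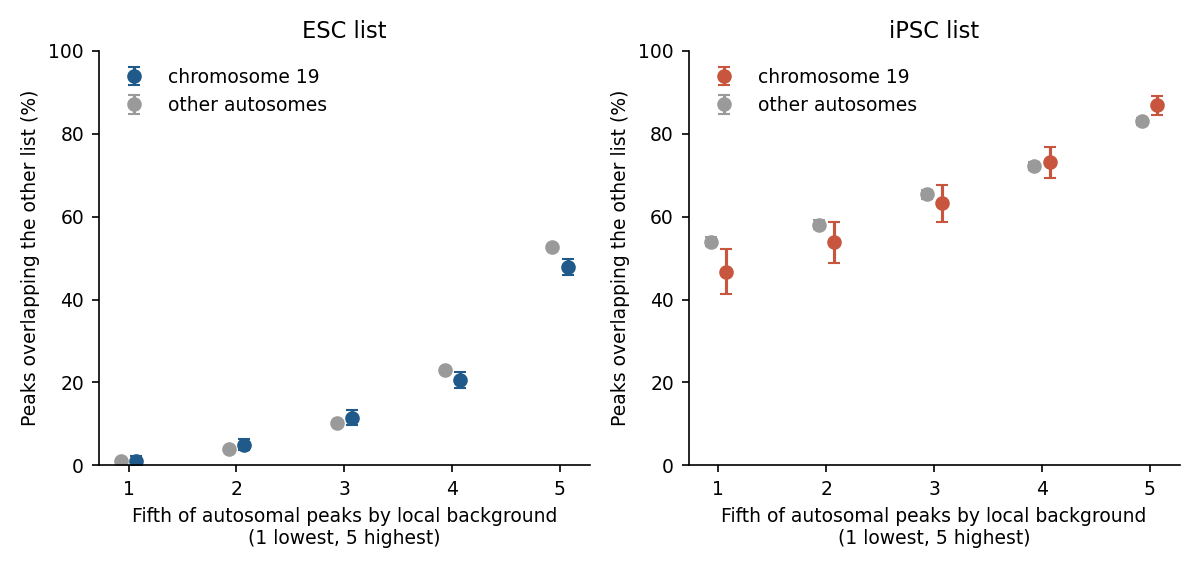
Share of ESC peaks (left) and iPSC peaks (right) that overlap the other list, in percent, for 5 bins of autosomal peaks by recovered local background, from lowest (1) to highest (5). Coloured points are chromosome 19 and grey points the other 19 autosomes, with exact 95% intervals as bars; in ESC the share of chromosome 19 goes from 0.997% in bin 1 to 47.8% in bin 5.

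The overlap also followed density. In windows of 50 to 99 ESC peaks 22.0% of chromosome 19 ESC peaks overlapped (19.3 to 24.9%), against 15.7% elsewhere, and in windows of 100 to 149 it was 23.9% (21.9 to 26.0%) against 21.2%. In windows of 150 to 199 the shares were 25.8% (24.1 to 27.7%) and 25.01%. In windows of 200 or more they were 27.4% (25.6 to 29.3%) and 31.7%, so the order changed with density.

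Where peaks of the lists coincided, they did so closely. There were 1791 pairs on chromosome 19 in which a peak of each list overlapped the other and no further peak, with a median distance of 21 bp between summits, and 91.4% of the summits lay within 100 bp. The deposited fold enrichment was higher in the iPSC peak of 75.6% of these pairs (73.5 to 77.6%), with medians of 2.40 in iPSC and 2.02 in ESC; elsewhere the share was 77.1%. The recovered pileup relative to the lowest background of each list ran the other way, at 10.8 in ESC and 7.76 in iPSC, and was higher in iPSC in 1.90% of pairs. The local background at these sites was 5.15 times the lowest in ESC and 3.13 times in iPSC, so the fold of each list refers to its own background and the lists' folds are not on a common scale. The iPSC peak was the wider one in 39.0% of the pairs (36.7 to 41.3%), against 46.0% elsewhere, with median widths of 254 bp in iPSC and 280 bp in ESC. The narrowest peak of the chromosome was 177 bp in ESC and 190 bp in iPSC, so the lists' widths have different lower limits.

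Among overlapping pairs the highest iPSC fold was at 8885685 to 8886105 (6.21, with 1.76 in ESC), followed by 31853221 to 31853482 (5.51 and 2.92) and 35057873 to 35058143 (5.07 and 1.93). Over the 5 pairs of highest iPSC fold the ESC folds ran from 1.76 to 2.92. The pairs were picked by iPSC fold, which favours a low iPSC background and a fold above that of ESC, so these values only describe them.

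The 5482 ESC peaks without overlap lay a median of 6014 bp from the nearest iPSC peak, against 20430 bp elsewhere. The 814 iPSC peaks without overlap lay closer to the other list, at a median of 2156 bp from an ESC peak against 3660 bp. Of these iPSC peaks 28.6% (25.5 to 31.9%) were within 1 kb of an ESC peak and 91.9% (89.8 to 93.7%) within 10 kb, against 18.9% and 78.2% on the other autosomes, and the farthest was 42192 bp away. Both lists are denser here than elsewhere, which by itself shortens the distances measured to either of them.

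The ESC peak without overlap with the highest fold lay next to the sparse region, at 20791358 to 20791606 (fold 6.16), 57046 bp from the nearest iPSC peak. It was also the highest ESC fold of the chromosome. The next were at 43041933 to 43042164 (4.89) and 20098676 to 20099151 (4.87). Among iPSC peaks without overlap the highest fold was at 25795033 to 25795784 (6.23), which lay 505 bp from an ESC peak. It was followed by 45537154 to 45537692 (6.07, 15489 bp away) and 45127462 to 45128078 (5.68, 1494 bp away).

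By their medians, the peaks of chromosome 19 were wider and of lower fold than those of any other autosome in both lists. Their median width was 230 bp (interquartile range 195 to 302), against 214 bp over the other autosomes and at most 219 bp on any of them. In iPSC it was 254 bp (213 to 345) against 241 bp, and at most 250 bp on any other. The median fold was 2.11 in ESC and 2.43 in iPSC, the lowest of the 20 autosomes in both lists, against 2.29 and 2.60. The median −log10 q-value was near that of the other autosomes in ESC (7.35 against 7.23) and lower in iPSC (7.90 against 8.47). In ESC the width differed less within windows of matched density, at 228 against 223 bp with 150 to 199 ESC peaks and 243 against 235 bp with 200 or more. The iPSC widths in the same windows were 255 against 253 bp and 253.5 against 269 bp, so with 200 or more ESC peaks the order turned. In sparser windows the iPSC peaks of chromosome 19 stayed wider. Their medians were 246 against 235 bp with 50 to 99 ESC peaks and 256 against 242 bp with 100 to 149. With 1 to 49 ESC peaks they were 347 against 228 bp, from 17 iPSC peaks on chromosome 19.

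Peaks of 1 kb or more were few. In ESC there were 16 (0.218% of the list on this chromosome, 0.125 to 0.354%, against 0.106% elsewhere), and 15 of them overlapped an iPSC peak (93.8%, 69.8 to 99.8%), beside 91.5% of 153 on the other autosomes. In iPSC there were 44 (1.66%, 1.21 to 2.22%, against 2.13%). Of these 44 wide iPSC peaks, 19 overlapped an ESC peak (43.2%, 28.3 to 59.0%), against 67.8% (64.5 to 71.0%) of 808 on the other autosomes, the lowest of the 20. This difference was noticed among several width classes after the values were seen. It was smaller at a width of at least 750 bp (53.4 against 63.9%), and with −log10 q of at least 5 in both lists the intervals overlapped (27.3%, 14.96 to 42.8%, against 35.4%, 32.1 to 38.8%).

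The 25 wide iPSC peaks without an ESC partner were spread over 20 windows and lay a median of 2576 bp from the nearest ESC peak, from 203 to 13852 bp. The widest iPSC peak of the chromosome, 2305 bp at 1518322 to 1520626, was 1 of them and the farthest from an ESC peak, although it lay in a window with 299 ESC peaks. The second widest, 2182 bp at 16998319 to 17000500, overlapped 4 ESC peaks. A peak of 1760 bp at 49454370 to 49456129 combined a large width with a fold of 5.33 and lay 1305 bp from an ESC peak. The widest ESC peak, 1481 bp at 33601962 to 33603442, overlapped an iPSC peak of 557 bp.

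Peaks of chromosome 19 lay close together. The median gap between neighbours was 3242 bp in ESC, against 7541 bp elsewhere, and 8113 bp in iPSC, against 17659 bp. Gaps of at most 1 kb made up 22.7% in ESC and 14.5% in iPSC, against 12.7% and 8.64%. A denser chromosome has shorter gaps at any arrangement, so gaps were also divided by the mean spacing of their chromosome. On that scale the ESC median was 0.463 against 0.446, and the iPSC median 0.420 against 0.291, the latter the highest of the 20 autosomes. The typical iPSC gap was thus closer to the mean spacing than elsewhere. The coefficient of variation of the gaps, which long gaps dominate, was nevertheless high, at 2.14 in ESC and 2.43 in iPSC against 1.62 and 2.23 over the pooled gaps elsewhere. By chromosome the medians of the others were 1.58 and 2.11, and chromosome 19 ranked 1 in ESC and 3 in iPSC. The high values rested on few gaps: without the 3 longest of each list they were 1.54 and 1.63 on chromosome 19. The other autosomes were not trimmed in this way.

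**Figure D5:**
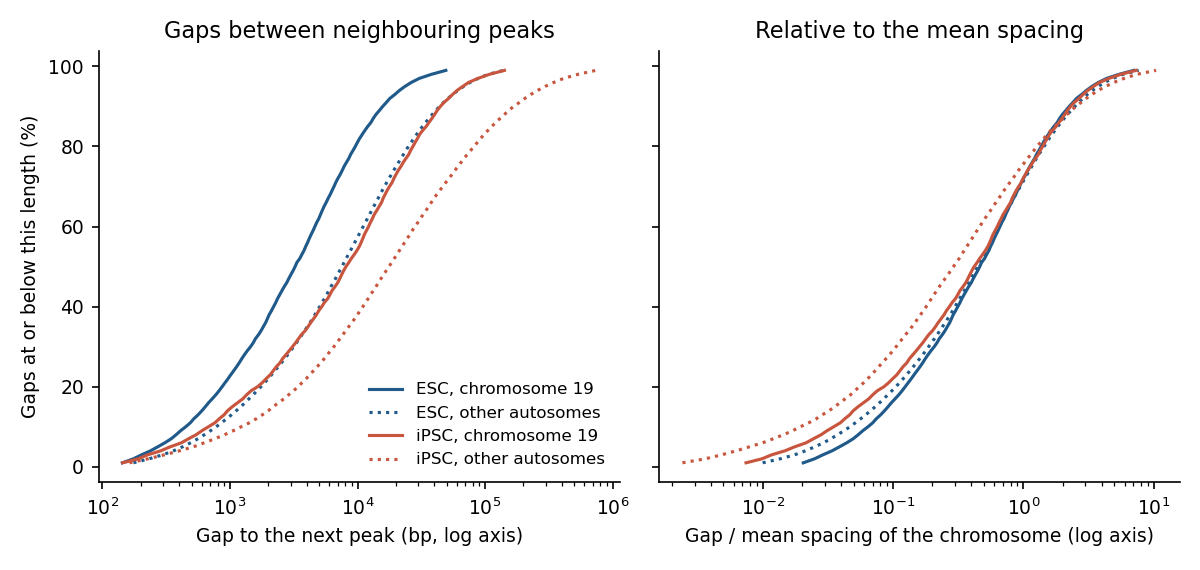
Cumulative share of gaps between neighbouring peaks, in percent, against the gap in bp (left) and the gap divided by the mean spacing of its chromosome (right), both on log axes. Solid lines are chromosome 19 and dotted lines the other autosomes (ESC blue, iPSC red), from the 1st to the 99th percentile; after scaling, the iPSC medians are 0.420 and 0.291.

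Clusters, taken as at least 5 peaks of a list with gaps of at most 5 kb, held 3175 ESC peaks of chromosome 19 (43.3%) in 370 clusters, against 18.5% on the other autosomes and 28.2% on chromosomes 10, 16 and 20. In iPSC 318 peaks (12.0%) lay in 50 clusters, against 6.40% on the other autosomes and 5.91% on chromosomes 10, 16 and 20. Chromosome 3 came closest in iPSC, with 10.6% of its peaks in 54 clusters. These shares depend on the length of the list: with the ESC list reduced to the length of the iPSC list 6.46% of ESC peaks were clustered, below the iPSC share. Of the ESC clusters 102 had at least 10 peaks and 16 at least 20. Clustering followed the density along the chromosome: 66.3% of ESC peaks were clustered in the first 10 Mb, 15.95% from 20 to 30 Mb and 42.4% from 40 to 50 Mb.

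The fullest ESC cluster ran over 76.2 kb from 306570 to 382722, with 46 ESC peaks, of which 20 overlapped an iPSC peak. The next were at 644239 to 693280 (30 peaks, 9 overlapping) and 1976995 to 2015214 (26 peaks, 11 overlapping). A cluster at 4847293 to 4899005 also had 26 peaks, of which 5 overlapped. Over all ESC clusters of the chromosome 28.6% of the peaks did. In iPSC the fullest clusters were at 2120212 to 2145662 and 48512278 to 48532958, with 10 peaks each, 7 of them overlapping in both, and at 35197 to 56228, the first by position of those with 9 peaks, all of them overlapping. The second of these lay on an ESC cluster of 14 peaks at 48510886 to 48532934, outside the dense first 10 Mb.

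ESC clusters made up 11.2% of the length of chromosome 19, against 1.95% on the other autosomes. They contained 989 of its iPSC peaks (37.2%, 35.4 to 39.1%), against 21.0% elsewhere. The iPSC density was 171.6 per Mb inside these clusters and 36.6 outside, against 160.8 and 12.0 on the other autosomes. By density alone the difference was thus larger outside clusters, but clusters also took up more of chromosome 19. The share of ESC peaks overlapping an iPSC peak was 28.6% in clusters (27.0 to 30.2%) and 22.8% outside (21.6 to 24.1%). On the other autosomes these shares were 27.6% and 15.4%, nearer those of chromosome 19 inside clusters than outside. Clusters follow the same gap rule on every autosome, which limits how far ESC density can differ inside them. The overlap also followed density, so the likeness inside clusters cannot be told apart from the rule that defines them. What underlies the difference outside was not tested.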

How the data were processed

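The submitters' processing notes name SAMtools 1.10, Picard 2.239, MACS2 and deepTools; the sources used here do not state the aligner, the genome build, the MACS2 version or the way libraries were combined. The 2 lists deposited by the authors give each peak's start, end and summit, a score (10 times the −log10 q-value without decimals, in 99.99% of ESC and 99.98% of iPSC peaks), the fold enrichment as a linear ratio, and a −log10 p-value and −log10 q-value of at least 1.30 for q. Positions are counted from 1. Members and lists were chosen with earlier results of these data known.

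Overlaps were found with bedtools 2.31.1. The rest used Python 3.11.15 with scipy 1.17.1, pandas 2.3.3 and numpy 2.4.6, and matplotlib 3.10.9 for plots. Chromosome length is the end of the last peak in either list; chromosome X and unplaced scaffolds were left out. Pileup and background were solved from the fold, taken as (pileup + 1)/(background + 1), and a Poisson tail, with pileups whole within 0.02, times 0.690 in iPSC; 88.4% of ESC and 92.5% of iPSC peaks on chromosome 19 had 1 solution. Scripts were tested on simulated peaks. Named by rule were, per list, the 5 fullest and 5 emptiest full windows, the 5 widest peaks, the 3 fullest clusters and the 3 longest peakless stretches; the 3 highest and 3 lowest window ratios; and the 5 highest folds per overlap class, of which the first 3 are printed with further ones where singled out. The cluster of 26 peaks with 5 overlapping, and the ESC cluster under the second iPSC cluster, were chosen after their values were seen.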

Additional observations from a re-analysis of the deposited data

How the results depend on the processing

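Of 80 values over 19 results and 14 alternative settings, 66 had a counting interval around the value as deposited, and 28 of them stayed within it and 38 did not. The other 14, variance-to-mean ratios and values of rho, have no interval and all differed from the value as deposited; the cause was not tested beyond what each setting changes. A −log10 q of at least 5 gave 103.8 ESC and 38.8 iPSC peaks per Mb, an iPSC density ratio of 3.32, overlaps of 23.2% (ESC) and 62.0% (iPSC), clustered shares of 30.7% and 7.13%, variance-to-mean ratios of 27.9 and 14.3, a rho of 0.886 and 27.3% of wide iPSC peaks overlapping. Reducing the ESC list to the length of the iPSC list gave 38.3 ESC peaks per Mb, a ratio of 2.60, overlaps of 39.1% and 29.1%, a width of 235 bp, 6.46% clustered, a variance-to-mean ratio of 11.9, 135.1 iPSC peaks per 100 ESC peaks, a rho of 0.873 and 4.55% of wide iPSC peaks overlapping. Merging peaks closer than 200 bp gave 138.7 ESC peaks per Mb and 41.4% clustered. Beyond 5 Mb from either end the densities were 125.1 and 45.4 per Mb, the ratios 2.59 and 4.17, the ESC width 226 bp, the clustered shares 34.6% and 8.62%, the variance-to-mean ratios 22.0 and 10.6 and rho 0.890. An overlap of 50% of both peaks gave 22.1% and 61.1%. Clustered shares were 12.9% and 1.43% with gaps of 2 kb, 74.9% and 29.2% with 10 kb, and 20.3% and 0.753% with at least 10 peaks. Windows of 0.5 Mb gave variance-to-mean ratios of 19.9 and 9.55 and a rho of 0.880, and windows of 2 Mb 64.8, 29.3 and 0.912. In alternatives chosen after seeing the data, ends of 2 Mb gave an ESC end-to-interior ratio of 1.56 and start-to-distal ratios of 3.97 (ESC) and 3.90 (iPSC), and ends of 10 Mb gave start-to-distal ratios of 1.60 and 1.80. No paired analysis was possible because the lists, 1 per cell type, hold no values per replicate, so no replicate could be left out either.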
